A study of Mus musculus with 12 samples.

Results

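The genes described here encode 10 proteins by which leukocytes attach to and cross the vessel wall, or that share their domains: the selectins Sele and Selp, the selectin ligand Selplg, the immunoglobulin superfamily molecules Icam1, Icam2 and Vcam1, the junction molecules Jam2 and Esam, the hyaluronan receptor Cd44 and the L1 family molecule Nrcam. Each was taken at the transcript cluster, the array's gene-level probe set, that carries exactly its symbol. This found 9 of the 10 genes, each with 1 cluster, among 23410 clusters with a gene symbol and 35556 on the array. Selp was not analysed here. RNA of the left lung was profiled in 12 mice with the MoGene 1.0ST v1 array of Affymetrix, 3 mice in each of 4 groups and 1 array for each, 5 days after an intratracheal dose of bleomycin, a DNA-damaging drug that injures the lung, or of saline (PBS). KOT mice were Fra-1∆/∆ and received 0.075 U of bleomycin in 30 µL of PBS, and KOC mice were Fra-1∆/∆ and received 30 µL of PBS alone. WTT mice were Fra-1+/+ with the same bleomycin dose, and WTC mice were Fra-1+/+ with PBS. Fra-1, encoded by Fosl1, is a subunit of the AP-1 transcription factor. Both genotypes carry the floxed Fra-1 alleles on a mixed background, in the labels C57/129S, and the Fra-1∆/∆ mice (Fra-1-/- in the labels) also carry Meox2-Cre, which acts in the embryo and not in extra-embryonic tissue, so that the deletion was not limited to the lung. The labels give all mice as female and 2 months old, while the study's methods give a higher age.

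During inflammation, leukocytes first roll on selectins that the activated endothelium displays, then stop when their integrins bind ICAM and VCAM molecules, and finally pass between endothelial cells whose junctions hold molecules such as JAM and ESAM. E-selectin and VCAM-1 are classically induced on endothelium by TNF and IL-1, whereas ICAM-2 and ESAM are present on resting endothelium. In the lung much of this traffic runs through capillaries, where selectins are needed less than in the venules of other tissues.

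Values are log2 expression after RMA, so that a difference of 1 is a 2-fold change, and levels are compared only within a gene. A gene was taken as higher or lower where its p, adjusted by Benjamini-Hochberg for the 23410 clusters, was under 0.05 in limma, a linear model fitted to all 12 arrays with a moderated variance, and the SE of each fold change comes from that fit. Array medians lay between 7.14 and 7.22. Fosl1 lay between 7.28 and 7.33 in KOT and between 7.81 and 8.32 in WTT mice, a difference of -0.80 (adjusted p = 0.16), and between 6.26 and 6.68 in KOC and 6.37 and 6.86 in WTC mice. Whether its probes lie in the deleted part is not known, so this is no check of the deletion. In 12 of 12 arrays Xist lay below the mean of the Y-linked genes Uty, Kdm5d and Eif2s3y, which goes against the labelled sex. All KOT and KOC mice but only WTC 76 of the Fra-1+/+ mice have animal numbers under 100, and what the numbers stand for is not stated.

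Bleomycin was followed by changes in both directions within the family. In Fra-1+/+ mice, 3 of the 9 genes (Selplg, Vcam1 and Nrcam) were higher and 1 (Icam2) was lower in WTT than in WTC mice, where 21.5% of all clusters passed the test, 10.2% as higher and 11.3% as lower. In Fra-1∆/∆ mice, 2 (Selplg and Vcam1) were higher and 2 (Icam2 and Esam) were lower in KOT than in KOC mice, against 15.4% of all clusters, 7.42% higher and 7.98% lower. For 6 of 9 genes the WTT and WTC mice did not overlap, as for 35.7% of all clusters, and for 6 of 9 the KOT and KOC mice did not overlap, as for 35.4%. The median of the 9 log2 fold changes was 0.11 for KOT against KOC and 0.43 for WTT against WTC, beside 0.02 over all clusters in both. The local-pooled-error (LPE) test of the study's methods, which compares medians at an adjusted p under 0.01, called 0 of the 9 genes in KOT against KOC, beside 8.08% of all clusters, and 1 (Nrcam) in WTT against WTC, beside 7.92%. The mean of both responses, KOT and WTT against KOC and WTC, was added after these values had been seen. In that mean 5 genes (Sele, Selplg, Vcam1, Cd44 and Nrcam) were higher and 2 (Icam2 and Esam) lower, where 32.1% of all clusters passed. Icam1 and Jam2 did not pass in any of these comparisons.

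**Figure D1:**
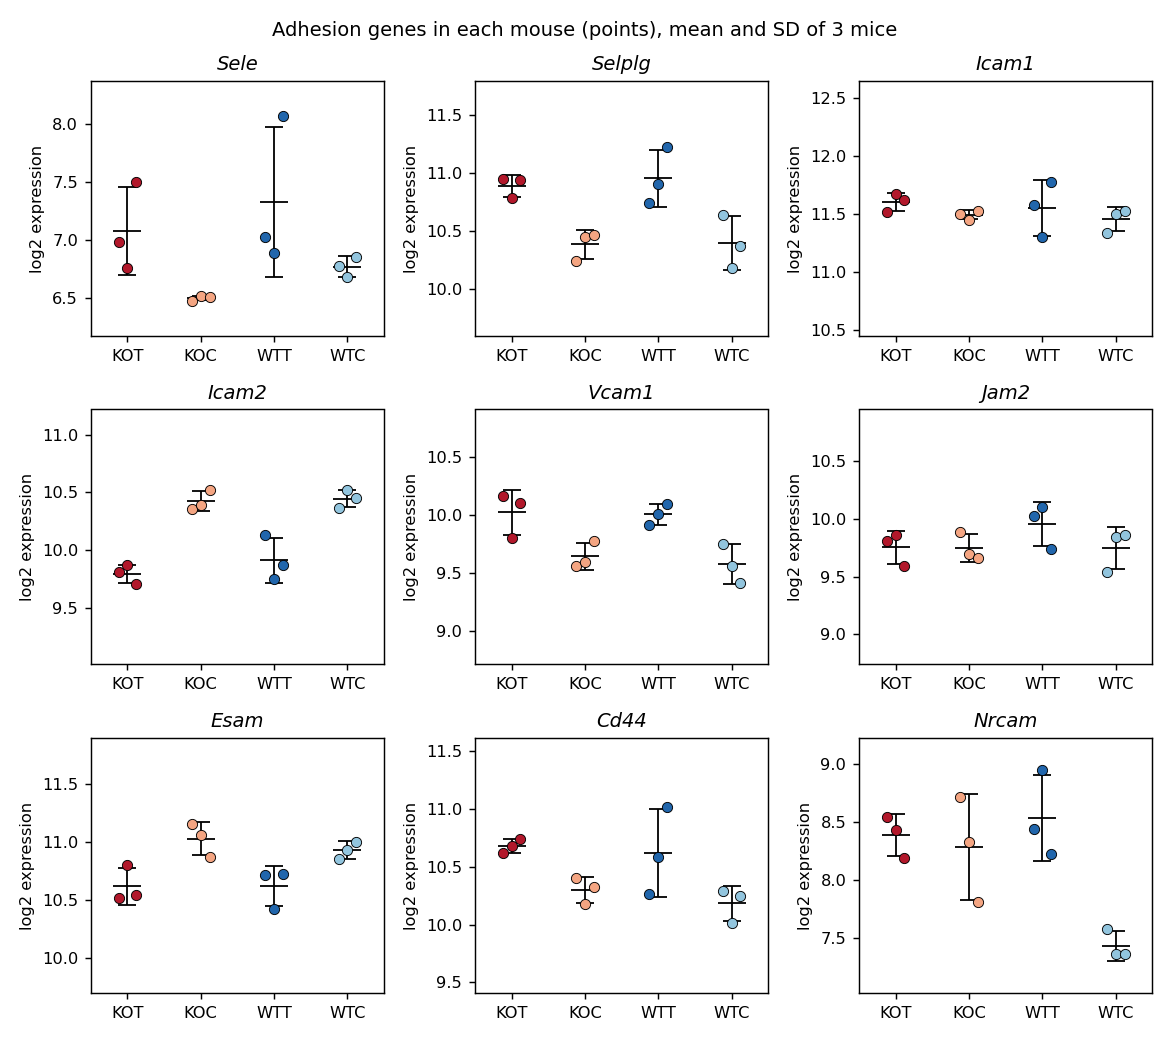
Log2 expression of the 9 genes in each mouse, by group (KOT, KOC, WTT, WTC; 3 mice each), with points for mice, the long bar for the mean and whiskers for 1 SD. Every panel spans the same log2 range. Icam2 separates both bleomycin groups below both PBS groups, and the WTC mice are the lowest 3 for Nrcam, at 7.36 to 7.58.

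Sele encodes E-selectin, which endothelium makes on activation and to which rolling leukocytes tether. Its values were 6.99, 6.76 and 7.50 in KOT mice, against 6.48, 6.52 and 6.51 in KOC mice, and 7.03, 6.89 and 8.07 in WTT mice, against 6.78, 6.68 and 6.86 in WTC mice. All KOT mice lay above all KOC mice, and all WTT above all WTC mice, but the bleomycin groups were spread widely, with WTT 164 highest of all 12 mice. The fold changes, 0.58 (SE 0.26, adjusted p = 0.17) for KOT against KOC and 0.56 (SE 0.26, adjusted p = 0.163) for WTT against WTC, did not pass in either genotype alone. Without WTT 164 the WTT value was 0.18. Averaged over both genotypes, Sele rose by 0.57 (SE 0.19, adjusted p = 0.0358), a call that was lost in 8 of 12 omissions of a single mouse. It held in 4 of 8 other settings of processing or test. The 3 genes whose values over the 12 arrays were most like those of Sele were Tnfaip3, an inhibitor of NF-kB signaling (Pearson r = 0.969), the neutrophil chemokine Cxcl1 (0.96) and Rnd1 (0.959). These correlations describe arrays that share groups and normalization. With the mean level of 10 neutrophil markers Sele correlated at r = 0.85 over the arrays and 0.81 without the group means, and that mean was highest in WTT 164, at 10.20. The link was not particular to neutrophil markers. With 16 genes that induce endothelial activation or carry its signal these values were 0.91 and 0.92. With 16 genes of hyaluronan and Cd44 partners they were 0.85 and 0.89. The part of neutrophils or of these genes in the spread of Sele was not tested.

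The promoter of Sele is shown because Fra-1 is part of AP-1 and the 250 bases before the start hold 1 match to the AP-1 motif TGANTCA. The sequence is from RefSeq (GRCm38.p6, chr1:164047984-164048233, plus strand), 5′ to 3′ and ending at the last base before the start, with the match in capitals.
Sele: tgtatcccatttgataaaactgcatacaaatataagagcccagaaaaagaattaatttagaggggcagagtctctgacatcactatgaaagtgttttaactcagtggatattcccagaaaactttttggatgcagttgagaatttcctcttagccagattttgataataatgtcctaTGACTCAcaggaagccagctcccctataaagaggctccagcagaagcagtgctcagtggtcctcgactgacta
The match begins 73 bases before the start. RefSeq windows were available for 5 of the 10 genes (Sele, Selp, Icam1, Cd44 and Nrcam), and on either strand 2 of these 5 held the motif, Sele and, 139 bases before its start, Selp, beside 6.75% of 32851 windows of the same length. A match is a description of the letters and no evidence of binding, and the level of Sele did not pass the test between genotypes.

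Selplg encodes PSGL-1, the mucin on leukocytes that binds all selectins. It stood at 10.95, 10.78 and 10.94 in KOT mice, against 10.24, 10.45 and 10.46 in KOC mice, and at 10.74, 10.90 and 11.22 in WTT mice, against 10.64, 10.18 and 10.37 in WTC mice. Both bleomycin groups lay wholly above their PBS group. Selplg rose 1.42-fold in KOT against KOC (log2 0.51, SE 0.14, adjusted p = 0.0289) and 1.47-fold in WTT against WTC (0.55, SE 0.14, adjusted p = 0.0153). The first call was lost without KOC 53, KOC 55, KOT 72 or KOT 81, and the second without WTC 157 or WTT 164, at values of 0.44 and 0.42. Of 10 other settings of processing or test, each call held in 7. Settings that lost the second included the use of only the arrays compared (adjusted p = 0.0538). Monocyte and macrophage markers moved in the same direction: 7 of 9 measured were higher and 1 lower in KOT than in KOC mice, and 8 higher and 1 lower in WTT than in WTC mice. Their mean level was 9.86 to 10.33 in KOT, 9.11 to 9.27 in KOC, 9.96 to 10.41 in WTT and 9.08 to 9.27 in WTC mice. Over the 12 arrays Selplg and this mean correlated at r = 0.93, and at 0.68 once each group's mean was removed. With the mean of the neutrophil markers these values were 0.80 and 0.67. With that of 15 leukocyte integrins and their activators they were 0.97 and 0.87. The link was not particular to leukocyte genes. With the hyaluronan and Cd44 partners the values were 0.94 and 0.82, and with the genes of endothelial activation 0.94 and 0.80. The part of monocytes, macrophages or neutrophils in the rise of Selplg was not tested. In whole lung more cells of a type and more RNA per cell cannot be told apart. The most similar genes over the 12 arrays were Dr1 (r = 0.98), the TNF receptor family member Relt (0.977) and the kinase gene Pim1 (0.977).

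Icam1 encodes the endothelial and epithelial ligand of the leukocyte β2 integrins. Its values were 11.52, 11.67 and 11.62 in KOT mice, against 11.50, 11.45 and 11.53 in KOC mice, and 11.58, 11.30 and 11.78 in WTT mice, against 11.34, 11.50 and 11.53 in WTC mice. The groups overlapped in both genotypes. The differences were 0.11 for KOT against KOC (95% interval -0.12 to 0.35, adjusted p = 0.549) and 0.10 for WTT against WTC (-0.14 to 0.33, adjusted p = 0.593), and the second was -0.02 without WTT 164. Its promoter is shown for its sequence near an NF-kB consensus. The consensus itself, searched on both strands, was found in 0 of the 5 windows and in 7.25% of all windows. The Icam1 window holds the 9 letters GGAAATTCC, a form close to it, which were picked from this window after it had been seen. The sequence is again RefSeq's (GRCm38.p6, chr9:21015690-21015939, plus strand), ending before the start, with these letters in capitals.
Icam1: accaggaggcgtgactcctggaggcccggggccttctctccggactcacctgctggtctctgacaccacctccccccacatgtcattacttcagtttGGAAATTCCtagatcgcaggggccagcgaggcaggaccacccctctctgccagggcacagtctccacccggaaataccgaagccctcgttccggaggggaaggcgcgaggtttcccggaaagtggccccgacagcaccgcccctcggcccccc
The 9 letters begin 153 bases before the start. On either strand they stand in 0.286% of all windows, and since they were picked from Icam1, their presence there is a description only.

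Icam2 encodes a ligand of the same integrins that resting endothelium carries constitutively. Values were 9.81, 9.87 and 9.71 in KOT mice, against 10.36, 10.39 and 10.52 in KOC mice, and 10.13, 9.75 and 9.87 in WTT mice, against 10.37, 10.52 and 10.45 in WTC mice. All 6 bleomycin mice lay below all 6 PBS mice. Icam2 fell by 35.2% in KOT against KOC (log2 -0.63, SE 0.10, adjusted p = 0.00209) and fell by 30.6% in WTT against WTC (-0.53, SE 0.10, adjusted p = 0.00333), and both calls held whichever single mouse was left out. With LPE the adjusted p were 0.0163 for KOT against KOC and 0.0284 for WTT against WTC, above its threshold of 0.01. The most similar genes were Apbb1 (r = 0.989), the actin-severing protein gene Gsn (0.981) and Otud1 (0.981). Icam2 also stands in a table that the study chose on these arrays, so its direction here is not independent evidence.

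Vcam1 encodes the endothelial ligand of the integrin VLA-4 of lymphocytes and monocytes. The mice had 10.16, 9.80 and 10.10 in KOT, against 9.56, 9.59 and 9.77 in KOC, and 9.91, 10.01 and 10.09 in WTT, against 9.75, 9.56 and 9.41 in WTC. No bleomycin mouse overlapped with its PBS group. Vcam1 rose 1.30-fold in KOT against KOC (log2 0.38, SE 0.11, adjusted p = 0.0425) and 1.35-fold in WTT against WTC (0.43, SE 0.11, adjusted p = 0.0193). The first call was lost in 6 of 12 omissions (without KOC 53, KOC 55, KOT 72, KOT 81, WTC 157 or WTT 161). It held in 5 of 10 other settings of processing or test. Settings that lost it included the use of only the 6 arrays compared (adjusted p = 0.0656) and equal array medians (adjusted p = 0.0535). The second call was lost without WTC 157, WTC 158, WTT 161 or WTT 164, at values between 0.35 and 0.43. It held in 8 of the 10 other settings. Averaged over both genotypes the rise was 0.41 (SE 0.08, adjusted p = 0.00245) and held in every omission. Over the 12 arrays Vcam1 correlated with the mean of 12 endothelial markers at r = -0.94 (-0.81 without the group means), with that of the monocyte and macrophage markers at 0.90 (0.62) and with that of 10 fibroblast markers at 0.83 (0.23). With the mean of alveolar epithelial markers Vcam1 correlated at -0.92 (-0.76), and with that of the leukocyte integrins and their activators at 0.93 (0.76). Such values were therefore not particular to endothelial or to monocyte and macrophage markers. The part of these cells or genes in the rise of Vcam1 was not tested.

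Jam2 and Esam encode molecules of endothelial junctions. Jam2 had 9.81, 9.86 and 9.59 in KOT mice, against 9.88, 9.69 and 9.66 in KOC mice, and 10.02, 10.10 and 9.74 in WTT mice, against 9.54, 9.84 and 9.86 in WTC mice. Its groups overlapped, with differences of 0.01 (95% interval -0.25 to 0.27, adjusted p = 0.972) for KOT against KOC and 0.21 (-0.05 to 0.47, adjusted p = 0.256) for WTT against WTC. Esam had 10.51, 10.80 and 10.54 in KOT mice, against 11.15, 11.06 and 10.87 in KOC mice, and 10.71, 10.42 and 10.72 in WTT mice, against 10.85, 10.93 and 11 in WTC mice. All 6 bleomycin mice lay below all 6 PBS mice, as for Icam2. Esam fell by 24.8% in KOT against KOC (log2 -0.41, SE 0.11, adjusted p = 0.0267), a call lost without KOC 53, KOC 55, KOT 72 or KOT 81. This call held in 8 of 10 other settings of processing or test. The WTT value of -0.31 (SE 0.11, adjusted p = 0.067) did not pass. Averaged over both genotypes Esam fell by 0.36 on the log2 scale (SE 0.08, adjusted p = 0.00407). The gene most similar to Esam over the arrays was Ocln, encoding the tight junction protein occludin (r = 0.979).

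Endothelial markers fell beside Icam2 and Esam. Of 12 general endothelial markers, 10 were lower and 0 higher in KOT than in KOC mice, and 7 lower and 0 higher in WTT than in WTC mice, with medians of -0.60 and -0.43. Examples are Kdr, the VEGF receptor, at -0.92 in both (adjusted p = 0.00552 in KOT and 0.00408 in WTT), and Cdh5, encoding VE-cadherin, at -0.49 and -0.40 (adjusted p = 0.00479 and 0.01). Their mean level was 10.53 to 10.73 in KOT, 11 to 11.22 in KOC, 10.53 to 10.78 in WTT and 10.96 to 11.17 in WTC mice. Of 6 capillary markers 4 were lower in each genotype, among them Ednrb at -1.18 in KOT against KOC and -1.22 in WTT against WTC. Esam and the mean of the endothelial markers correlated at r = 0.95 over 12 arrays and at 0.89 without the group means, and Icam2 at 0.93 and 0.49. Alveolar epithelial markers also fell, 6 of 10 in KOT against KOC and 7 of 10 in WTT against WTC, with 0 higher. Over all clusters 7.98% and 11.3% were lower. With the mean of these alveolar markers Esam correlated at 0.93 and 0.80, and Icam2 at 0.92 and 0.70, so such values were not particular to endothelial markers. The part of these markers in the lower Icam2 and Esam was not tested. Venule markers did not move alike: 2 of 7 were higher in each genotype, the chemokine receptor Ackr1 (1.19 in KOT against KOC and 1.03 in WTT against WTC) and Lrg1 (0.62 and 0.82), and 0 were lower.

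**Figure D2:**
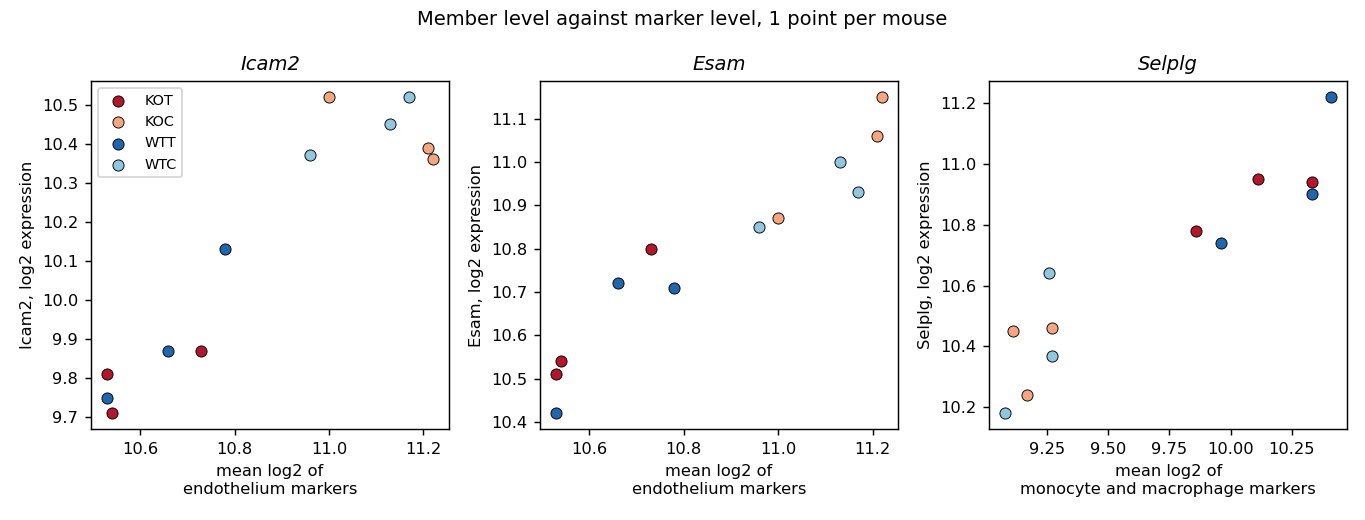
Log2 expression of Icam2, Esam and Selplg (vertical axes) against the mean log2 level of 12 endothelial markers or of 9 monocyte and macrophage markers (horizontal axes), 1 point per mouse, coloured by group. In the first 2 panels the KOT and WTT mice sit at the lower left and the KOC and WTC mice at the upper right, while in the panel of Selplg the KOT and WTT mice sit at the upper right.

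Cd44 encodes the hyaluronan receptor, which also binds selectins when suitably glycosylated and is carried by leukocytes, fibroblasts and epithelium. Values were 10.62, 10.68 and 10.74 in KOT mice, against 10.40, 10.18 and 10.32 in KOC mice, and 10.26, 10.58 and 11.01 in WTT mice, against 10.29, 10.01 and 10.25 in WTC mice. The KOT mice lay close together and above all KOC mice, whereas WTT 160 lay within the WTC range. The differences of 0.38 (SE 0.15, adjusted p = 0.126) for KOT against KOC and 0.43 (SE 0.15, adjusted p = 0.0695) for WTT against WTC did not pass, and without WTT 160 the second was 0.61 (adjusted p = 0.00796). With array weights both passed (0.36, adjusted p = 0.0364, and 0.50, adjusted p = 0.0312). The KOT difference still did not pass in 8 of 10 other settings of processing or test and in 11 of 12 omissions. For the WTT difference these counts were 9 of 10 and 11 of 12. Averaged over both genotypes Cd44 rose by 0.41 (SE 0.11, adjusted p = 0.0139). Neutrophil markers spread among the WTT mice in the same order as Cd44, with their highest mean, 10.20, in WTT 164, beside 8.40 in WTT 160 and 9.29 in WTT 161. In KOT mice the order differed from that of Cd44, with neutrophil means of 8.68 in KOT 72, 7.79 in KOT 80 and 9.05 in KOT 81. The mean was 7.95 to 8.18 in KOC and 7.81 to 7.98 in WTC mice. Of the 10 neutrophil markers measured, 1 was higher in KOT than in KOC and 3 in WTT than in WTC mice, beside 7.42% and 10.2% of all clusters. Monocyte and macrophage markers kept the same order as Cd44 in WTT mice, with means of 9.96 in WTT 160, 10.33 in WTT 161 and 10.41 in WTT 164. Without the group means Cd44 correlated at r = 0.71 with the neutrophil mean and at 0.70 with the monocyte and macrophage mean. The link was not particular to these markers. Without the group means it was 0.91 with the hyaluronan and Cd44 partners and 0.85 with the genes of endothelial activation. With lymphatic endothelial markers it was 0.84. The part of any of these lists in the spread of Cd44 was not tested.

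Nrcam encodes a neuronal adhesion molecule of the L1 family that links to the ankyrin cytoskeleton. Its values were 8.55, 8.43 and 8.19 in KOT mice, against 8.72, 8.33 and 7.81 in KOC mice, and 8.44, 8.95 and 8.23 in WTT mice, against 7.58, 7.36 and 7.36 in WTC mice. The WTC mice were thus the lowest 3 of the 12, and the other groups overlapped with each other. Group means ran WTT 8.54, KOT 8.39, KOC 8.29 and WTC 7.43. Nrcam rose 2.16-fold in WTT against WTC (log2 1.11, SE 0.22, adjusted p = 0.00498), with values of 0.90 to 1.26 on leaving out single mice and the call kept each time. In KOT against KOC the difference was 0.10 (95% interval -0.38 to 0.59, adjusted p = 0.818). Nrcam stands in the study's tables for its level on these same arrays, so the comparison of genotypes below is not independent of that choice.

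**Figure D3:**
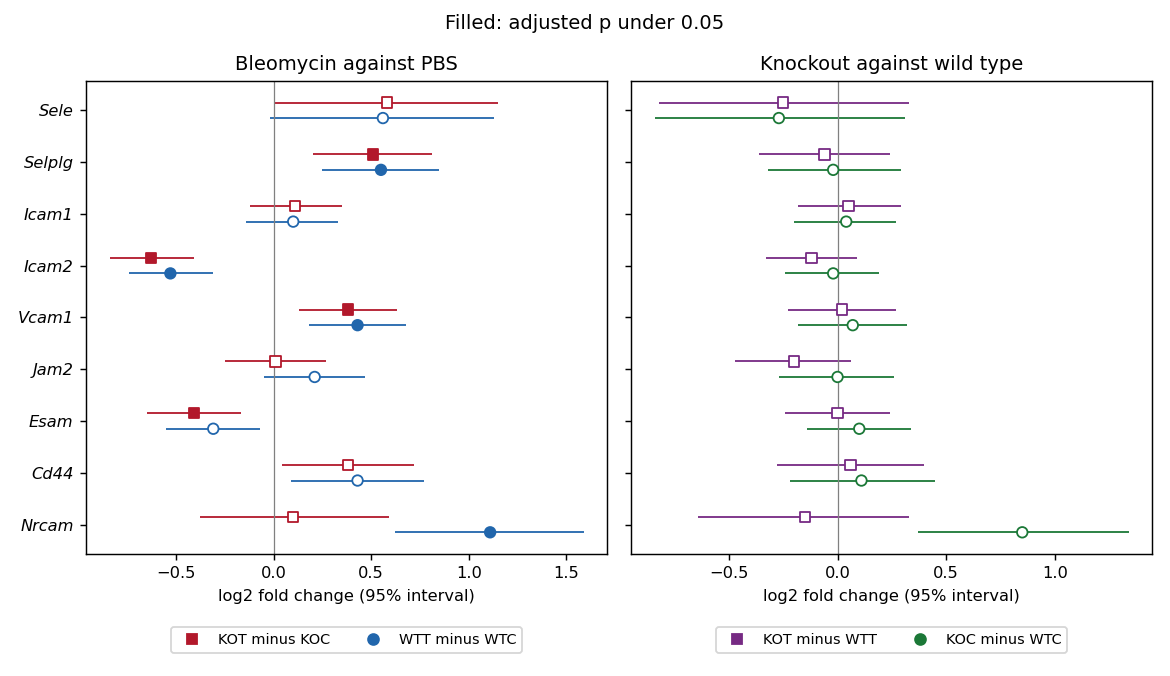
Log2 fold changes (horizontal axes) of the 9 genes with 95% intervals from the limma fit, on the left for bleomycin against PBS (squares KOT minus KOC, circles WTT minus WTC) and on the right for genotype (squares KOT minus WTT, circles KOC minus WTC), filled where the adjusted p is under 0.05. Nrcam has the widest gap between its bleomycin values (0.10 and 1.11), and no value on the right is filled.

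Between genotypes none of the 9 genes passed the test. With PBS, 0 of 9 genes differed between KOC and WTC mice by limma, beside 0.0128% of all clusters. Before adjustment 1 of the 9, Nrcam, had a p under 0.05, near the 9.82% of all clusters that did, and LPE also called 1, again Nrcam, beside 1.79% of all clusters. Nrcam was 0.85 higher in KOC than in WTC (SE 0.22, 95% interval 0.37 to 1.34, adjusted p = 0.391), with all KOC above all WTC mice, and by LPE the difference of medians was 0.97 (adjusted p = 1.6e-04). Groups did not overlap for 2 genes, Nrcam and Sele, as for 16.3% of all clusters. Sele was lower in all KOC than in all WTC mice, by a log2 difference of -0.27 (SE 0.26, adjusted p = 0.805). Without Nrcam, the 8 differences lay between -0.27 and 0.11, with 95% intervals that together reach from -0.84 to 0.45. With a term for animal numbers above 100, Nrcam differed by 0.71 (adjusted p = 0.61). That term rests on WTC 76, the 1 Fra-1+/+ mouse with a low number, at 7.58.

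With bleomycin, 0 of 9 genes differed between KOT and WTT mice by limma, beside 0.0427% of all clusters. A p under 0.05 before adjustment was found for 0 of 9 genes and 10.6% of all clusters, and LPE called 0 of 9 and 0.705%. The groups overlapped for all 9, where 15.7% of clusters did not. Nrcam differed by -0.15 (95% interval -0.64 to 0.33, adjusted p = 0.847). The other 8 differences were -0.25 to 0.06, within intervals from -0.82 to 0.40. The response to bleomycin itself, (KOT minus KOC) minus (WTT minus WTC), differed in 0 of 9 genes by limma and in 0 of all clusters (0%), of which 1193 (5.1%) had a p under 0.05 before adjustment. LPE gives no test of this difference. Its largest value was that of Nrcam, -1.01 (SE 0.31, 95% interval -1.69 to -0.32, adjusted p = 0.868), the 1 gene with a p under 0.05 before adjustment. The other 8 lay between -0.20 and 0.02, with intervals from -0.79 to 0.84, so that changes of that size in the response were not resolved by 3 mice a group.

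The lists of Nrcam's relatives and of cells that could carry it are given beside it. Their counts stand beside 7.42% of all clusters higher and 7.98% lower in KOT against KOC. In WTT against WTC these shares were 10.2% and 11.3%. Of 14 other L1 family and neural adhesion genes, 1 was higher and 3 lower in KOT than in KOC mice, and 3 higher and 3 lower in WTT than in WTC mice. Chl1, another L1 family molecule, rose by 2.94 in KOT (adjusted p = 4.2e-04) and by 2.97 in WTT (adjusted p = 1.9e-04), and Ank3, encoding an ankyrin to which L1 proteins bind, fell by 0.80 (adjusted p = 0.00554) in KOT and fell by 0.91 (adjusted p = 0.00214) in WTT. Nrp2, a neuropilin, rose by 0.49 in WTT (adjusted p = 0.00159), with 0.23 in KOT (adjusted p = 0.0712), and Cntn1, a contactin, was at -0.32 in KOT (adjusted p = 0.073) and fell by 0.73 in WTT (adjusted p = 0.00128). Schwann cell and nerve markers had mean levels of 6.53 to 6.72 over all 12 mice, with 1 of 9 higher in KOT than in KOC and 0 in WTT than in WTC. The mean of 9 smooth muscle and pericyte markers was 9.41 to 9.65 in KOT, 9.30 to 9.66 in KOC, 9.49 to 9.72 in WTT and 9.26 to 9.37 in WTC mice, and it correlated with Nrcam at r = 0.84 over the arrays and 0.67 without group means. For the 10 fibroblast markers these values were 0.78 and 0.72. Of the smooth muscle and pericyte markers 1 was higher in KOT than in KOC and 5 in WTT than in WTC mice, and their part in the pattern of Nrcam was not tested. Single genes most similar to Nrcam were Tmem45a (r = 0.919), Olfml2b (0.903) and Tenm2 (0.897).

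Among the 9 genes, the strongest correlations over the 12 arrays were Selplg with Vcam1 (r = 0.91) and Vcam1 with Esam (-0.89), followed by Selplg with Icam2 (-0.87), Selplg with Cd44 (0.86) and Icam2 with Vcam1 (-0.86). After the group means were removed, these were 0.68, -0.71, -0.46, 0.71 and -0.31. Sele with Cd44 kept most of its value, 0.76 over the arrays and 0.73 within groups. Jam2 ran against Selplg within groups (-0.84) but not over all arrays (-0.01). WTT 164 was the highest mouse of its group in 6 of the 9 genes.

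The partners of these molecules were counted from lists made for each step, members left out. For all these lists, the shares over all clusters were 7.42% higher and 7.98% lower in KOT against KOC. In WTT against WTC they were 10.2% and 11.3%. Among 23 selectin ligands and enzymes of their glycosylation, 3 were higher and 4 lower in KOT than in KOC mice, and 5 higher and 3 lower in WTT than in WTC mice, with medians of 0 and 0.02. B4galt1, a galactosyltransferase, rose by 0.50 (adjusted p = 0.00533) in KOT and 0.73 (adjusted p = 6.2e-04) in WTT. Of the sialyltransferases that cap selectin ligands, St3gal4 rose by 0.44 (adjusted p = 0.00708) and 0.47 (adjusted p = 0.00366), while St3gal6 fell by 0.63 (adjusted p = 0.00661) and fell by 0.67 (adjusted p = 0.00356). Tpst1, which sulfates tyrosines, was at -0.27 in KOT (adjusted p = 0.054) and fell by 0.37 in WTT (adjusted p = 0.00924).

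Of 15 leukocyte integrins and their activators measured, 6 were higher and 0 lower in KOT than in KOC mice, and 5 higher and 1 lower in WTT than in WTC mice, with medians of 0.11 and 0.15. Itgam and Itgb2, the chains of the Mac-1 integrin that binds ICAM-1, rose by 1.48 (adjusted p = 0.00782) and 0.70 (adjusted p = 0.00318) in KOT and by 2.05 (adjusted p = 0.00114) and 0.66 (adjusted p = 0.00303) in WTT. Itga5, the fibronectin receptor chain, rose by 0.94 in KOT (adjusted p = 0.0111) and by 1.57 in WTT (adjusted p = 7.0e-04). Itgae, which binds E-cadherin, rose by 0.96 in KOT (adjusted p = 0.00281) and by 0.68 in WTT (adjusted p = 0.0117). Itga4, the α chain of the Vcam1 receptor, was at 0.11 in KOT (adjusted p = 0.766) and -0.11 in WTT (adjusted p = 0.727), and Itgal, the α chain of LFA-1, was at -0.04 (adjusted p = 0.914) and -0.13 (adjusted p = 0.607). These last genes were named after their values had been seen.

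Other adhesion and junction molecules, listed for endothelium though not all limited to it, mostly fell where they changed. Of 22, 8 were lower and 0 higher in KOT than in KOC mice, with a median of -0.16. In WTT against WTC mice 8 were lower and 3 higher, with a median of -0.17. Cdh5 and Cldn5, lower in both genotypes, are also among the 12 endothelial markers above, so the counts are not separate. Alcam fell by 0.62 (adjusted p = 6.4e-04) in KOT and 0.67 (adjusted p = 2.2e-04) in WTT, Pecam1, encoding CD31, by 0.55 (adjusted p = 0.00143) and 0.38 (adjusted p = 0.00625), and Tjp1, encoding ZO-1, by 0.61 (adjusted p = 0.00351) and 0.49 (adjusted p = 0.0078). Stab1, a scavenger receptor of macrophages and sinusoidal endothelium, was at 0.43 in KOT (adjusted p = 0.0507) and rose by 0.75 in WTT (adjusted p = 0.00291).

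The genes of hyaluronan and its binding proteins, partners of Cd44, counted 4 higher and 0 lower of 16 in KOT against KOC, and 6 higher and 0 lower in WTT against WTC, with medians of 0.16 and 0.22. The proteoglycan gene Vcan rose by 2.14 (adjusted p = 8.9e-04) in KOT and 2.66 (adjusted p = 2.0e-04) in WTT, and Has2, a hyaluronan synthase, by 1.14 (adjusted p = 0.00465) and 1.66 (adjusted p = 5.4e-04). Hmmr, a hyaluronan receptor that dividing cells also express, rose by 0.91 (adjusted p = 0.00904) and 0.69 (adjusted p = 0.0249). Itih3, whose protein is linked to hyaluronan, rose by 0.50 in KOT (adjusted p = 0.00326), with 0.20 in WTT (adjusted p = 0.125).

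Of 16 genes that induce endothelial adhesion molecules or carry that signal, 7 were higher and 0 lower in KOT than in KOC mice, and 6 higher and 0 lower in WTT than in WTC mice, with medians of 0.47 and 0.55. The TNF receptor genes Tnfrsf1b and Tnfrsf1a rose by 0.98 (adjusted p = 0.00171) and 0.48 (adjusted p = 0.0109) in KOT and by 0.92 (adjusted p = 0.00156) and 0.61 (adjusted p = 0.00251) in WTT. The IL-4 receptor gene Il4ra rose by 0.73 (adjusted p = 0.00138) in KOT and 1.01 (adjusted p = 1.8e-04) in WTT, and the NF-kB subunit gene Relb by 0.70 (adjusted p = 0.00413) and 0.67 (adjusted p = 0.00369). Of the cytokine genes, Tnf rose by 1.34 in KOT (adjusted p = 0.0409) and 1.35 in WTT (adjusted p = 0.0314). Il1b, at 0.96 (adjusted p = 0.356) and 1.37 (adjusted p = 0.151), did not pass, nor did Il1a, Lta, Il4, Il13 and Ifng. These cytokines were named after their values had been seen. Of 7 genes whose proteins shed adhesion molecules from the cell surface, or regulate that shedding, 3 were higher in KOT than in KOC and 5 in WTT than in WTC mice, 0 lower, with medians of 0.49 and 0.59. The membrane metalloproteinase Mmp14, which can cleave CD44, rose by 1.11 (adjusted p = 4.2e-04) in KOT and 1.59 (adjusted p = 5.4e-05) in WTT, and Adam15 by 0.49 (adjusted p = 0.00458) and 0.59 (adjusted p = 0.00133). Adam17, a sheddase whose substrates include VCAM-1, was at 0.27 in KOT (adjusted p = 0.0995) and rose by 0.41 in WTT (adjusted p = 0.0156), and its partner Rhbdf2 was at 0.37 (adjusted p = 0.0798) and rose by 0.52 (adjusted p = 0.0153). Between genotypes 0 of the 113 genes of these lists passed limma in either treatment or in the difference between responses. Before adjustment 15 had a p under 0.05 in KOT against WTT, 8 in KOC against WTC and 10 in the difference between responses, beside 10.6%, 9.82% and 5.1% of all clusters. LPE called 3 in KOT against WTT and 3 in KOC against WTC, beside 0.705% and 1.79%. Nothing particular to these lists is read from the counts.

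**Figure D4:**
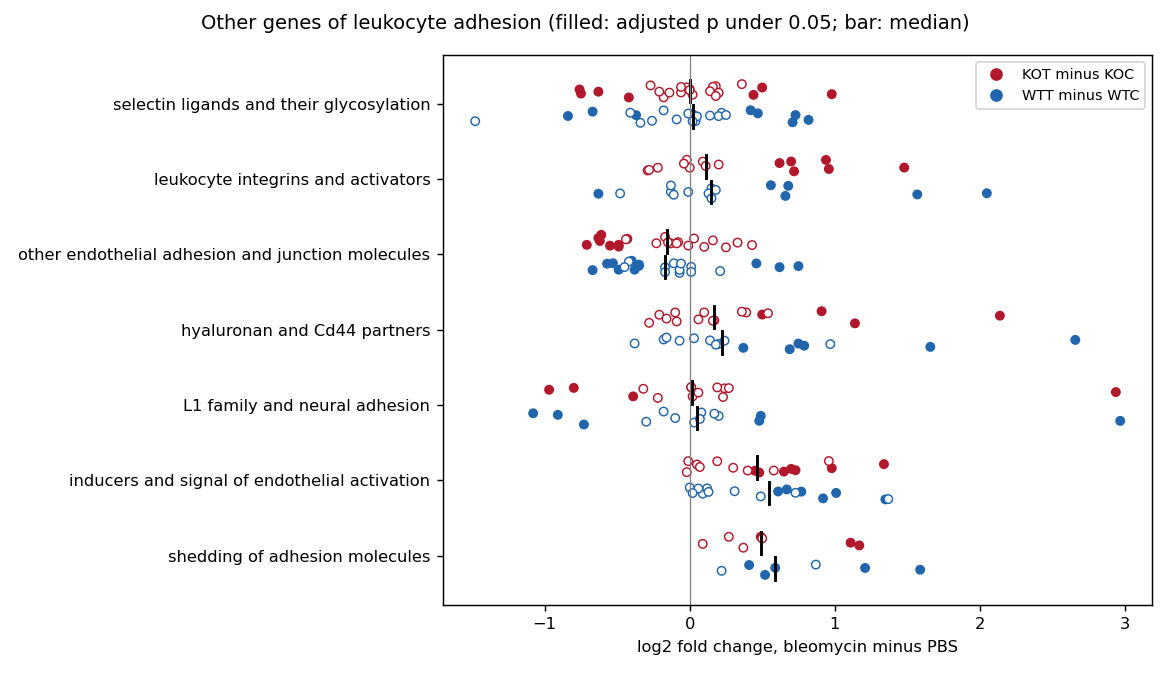
Log2 fold changes, bleomycin minus PBS (horizontal axis), of the other genes of leukocyte adhesion by list (vertical axis), red for KOT minus KOC and blue for WTT minus WTC, 1 point per gene, filled where the limma adjusted p is under 0.05, with a bar at the median. The medians of the inducers (0.47 and 0.55) and of the shedding genes (0.49 and 0.59) lie to the right of 0. Those of the list labelled other endothelial adhesion and junction molecules (-0.16 and -0.17), not all limited to endothelium, lie to its left.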

How the data were processed

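RNA of 12 mouse lungs was hybridised to 12 arrays. Using Affymetrix Power Tools (version not given in the sources used here), the authors applied quantile normalization and RMA, which summarizes each cluster's probes by median polish, and deposited log2 values. These lay between 2.32 and 14.67 and were not normalized again. The authors' filter on detection above background was not used, so that genes near background may be included. A linear model with 1 mean for each of the 4 groups was fitted over the 12 arrays in limma 3.58.1 under R 4.3.3 (8 residual degrees of freedom, moderated variances, two-sided p, Benjamini-Hochberg over the 23410 clusters with a gene symbol), and so the SE also holds the spread of groups outside a comparison. Symbols came from the platform's probe table. An exact two-sided test of 3 mice against 3 cannot go below p = 0.1, so that single genes rest on the pooled variances, and the 12 arrays limit the precision. The sources do not say whether mice of a group were treated on separate days.

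The 10 genes and all gene lists were chosen with earlier results of these data known. The text names every member, up to 4 genes of each partner list with the smallest bleomycin p, examples of marker lists, the 3 clusters with 1 symbol most like a member by Pearson r, and Fosl1. Further partner genes are marked where they were named after their values had been seen. The limma and LPE scripts were tested on simulated data. The LPE test was written anew with 100 intensity bins and a spline of 10 degrees of freedom. Other alternatives were the omission of each mouse, an adjusted p under 0.01, only the arrays compared, array weights, trended and robust moderation, equal medians, cyclic loess, only clusters that reach a group mean of 6, all clusters, and a term for animal numbers above 100.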

Additional observations from a re-analysis of the deposited data

Results flagged for a closer look

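One result met the rule for a difference between the genotypes' responses. The bleomycin response of Nrcam was 0.10 in Fra-1∆/∆ mice (KOT minus KOC) and 1.11 in Fra-1+/+ mice (WTT minus WTC), a difference of -1.01 with an interval of -1.69 to -0.32. It passes an uncorrected limma test of the interaction but fails the correction over all clusters (adjusted p = 0.868). The 3 WTC mice (7.36 to 7.58) lay below all KOT, KOC and WTT mice (7.81 to 8.95), and leaving out single mice gave -1.25 to -0.79.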

How the results depend on the processing

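Over 30 fold changes and 640 alternatives and omissions of a mouse, 572 kept their direction and side of the threshold, 51 no longer passed, 9 newly passed and 8 changed sign. The 30 included those of the 9 genes in both bleomycin comparisons and their mean. The rest were of Nrcam, the only gene followed between genotypes and in the difference between responses. Sign changes of the other genes in those comparisons were therefore not counted. The count of the 9 genes called was 4 in WTT against WTC, 1 by LPE, 2 at an adjusted p under 0.01, and 2 to 5 on leaving out single mice (2 without WTC 157 or WTT 164). In KOT against KOC it was 4, 0 by LPE, 1 at an adjusted p under 0.01, 2 over all clusters of the array, and 1 to 6 on leaving out single mice (1 without KOC 53, KOC 55, KOT 72 or KOT 81). In KOC against WTC it was 0, and 1 by LPE. It stayed at 0 in KOT against WTT and in the difference between responses under every alternative and omission. Signs changed for Jam2 in KOT against KOC (0.01, -0.01 with equal medians, -0.04 to 0.09 without single mice), Icam1 in WTT against WTC (-0.02 to 0.22), Nrcam in KOT against KOC (-0.14 to 0.32) and Nrcam in KOT against WTT (-0.31 to 0.05), none of which passed the test. The cause was not tested.

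Over all clusters, WTT against WTC gave 5027 calls (1855 by LPE, 2363 at an adjusted p under 0.01), KOT against KOC 3604 (1891, 1574, and 7118 with array weights), KOC against WTC 3 (418 by LPE) and KOT against WTT 10 (165 by LPE). No paired analysis was possible because the groups share no replicate number. A choice between clusters of a gene could not be tried, since each of the 9 genes has 1 cluster.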
